A study of Homo sapiens with 23 samples.

Results

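IL6 family cytokines and their receptors form one of the signalling systems that feed into STAT3, and their RNA was followed here in MCF10A-ER-Src cells, a human mammary epithelial line with a Src kinase whose fused estrogen receptor part makes it depend on added ligand. The members are 8 genes picked by name and role, with earlier results of these data known. They are the ligands IL6, LIF and IL11 and the receptor chains IL6R, LIFR, OSMR, IL31RA and IL6ST. The arrays hold 19775 genes with a probe set of their own. Counts of members called, set beside the share of all genes, are therefore descriptions. Cells were transfected with 25 nM of an siRNA pool against STAT3 (siSTAT3) or with a non-targeting pool (siNEG), grown for 2 days, and then given 1 µM 4-hydroxytamoxifen (TAM), which switches the Src fusion on, or its vehicle ethanol (EtOH), for 4 or 24 h. All groups carry the Src fusion, all were transfected, and all grew in medium with EGF, insulin, hydrocortisone and cholera toxin. RNA was measured on 23 Affymetrix U133 Plus 2.0 arrays, with 3 arrays in each of the 8 groups of siRNA, treatment and time, except siSTAT3 cells given TAM for 24 h, where replicates 2 and 3 were analysed. The methods speak of biological replicates, but the labels do not say that they came from separate cultures, so p-values measure the spread between these arrays.

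Most cytokines of this family act through the shared chain gp130, encoded by IL6ST. IL6 and IL11 use gp130 pairs together with their own receptors, LIF uses gp130 with LIFR, and oncostatin M uses gp130 with OSMR or, in humans, with LIFR, while IL31 signals through IL31RA and OSMR without gp130. Receptor binding activates Janus kinases, which phosphorylate STAT3, and STAT3 in turn raises SOCS3, a feedback inhibitor of gp130. In mammary and other epithelial cells the ligands are known as products of inflammatory and stress signalling.

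Values are signals in arbitrary units on a linear scale, 1 per probe set and array. Each gene is described by its main probe set, the one with the highest mean log2 signal over all arrays among the probe sets annotated to that gene alone. The 8 members have 25 such probe sets, and 7 of the 8 reached a mean of 100 units in at least 1 group, all but IL11. The shares of all genes given below also take in the many genes that did not reach it. No share among brighter genes alone was computed. Signals of different probe sets are not comparable as levels, so each gene was set only against itself. Differences are log2 changes with their standard error (SE) from limma, and a gene was called higher or lower at a Benjamini-Hochberg adjusted p below 0.05 over all 54675 probe sets.

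STAT3 itself had signals of 298 to 495 units on the siSTAT3 arrays, against 3914 to 6753 units on the siNEG arrays, and was 10.5-fold to 15.3-fold lower in siSTAT3 cells in the 4 matched comparisons (adjusted p of 1.02e-09 or less). All 5 measured basal mammary markers and 5 of 6 luminal markers reached a group mean of 100 units, with KRT5 and KRT14 at 14453 and 10072 units or more, KRT18 and EPCAM at 13468 and 5723 units or more, and KRT19 as the exception at 20.5 units or less. Of 4 measured leukocyte markers, CD14 (393 to 845 units) and ITGAM (at most 107 units) reached 100 units, while PTPRC and CD3E stayed at 43.5 and 73.9 units or less. Median signals of the arrays lay between 73.5 and 85.3 units. Summed over 7 fibroblast markers, of which only COL1A1 and DCN reached 100 units, signals were 2949.5 to 2957 units in siSTAT3 TAM 24 h, against 6836 to 7896 units in siNEG TAM 24 h, and 2093 to 3171 units in the other siSTAT3 groups, against 2895 to 5965 units in the other siNEG groups. PDGFRB, COL1A2 and COL3A1 stayed at group means of 46.3, 46.1 and 16.8 units or less. The part of this difference in the results below was not tested. In bulk RNA, fewer cells of a kind and less RNA per cell cannot be told apart.

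With Src switched on for 4 h in siNEG cells, IL6, LIF and OSMR rose and IL6R fell, which makes 4 of the 8 members, against 3.26% of all genes called in this comparison. IL6 had the largest change of these 4. After 24 h OSMR was higher and LIF and IL31RA were lower, 3 of 8 members against 15.4% of genes. In siSTAT3 cells TAM raised LIF and OSMR at 4 h, 2 of 8 against 0.819%, and LIF at 24 h, 1 of 8 against 2.75%. LIF was thus called in all 4 TAM comparisons, upward in 3 and downward in siNEG cells at 24 h. The median log2 change over the 8 members was 0.06 at 4 h and 0.05 at 24 h in siNEG cells, against -0.06 and -0.04 over all genes, and 0.03 and 0.06 in siSTAT3 cells, against -0.02 and -0.01.

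Without Src activation, siSTAT3 cells had more LIF RNA at both times and less IL6 and OSMR RNA at both times, with IL6R and LIFR also lower at 4 h. That makes 5 of 8 members in EtOH at 4 h, against 4.28% of genes, and 3 of 8 in EtOH at 24 h, against 2.86%. In TAM at 4 h LIF was higher and IL6, IL6ST, OSMR and LIFR were lower in siSTAT3 cells, 5 of 8 against 9.29%. In TAM at 24 h LIF and IL31RA were higher and IL6R, OSMR and LIFR were lower, 5 of 8 against 16.5%. The median log2 change of the members, siSTAT3 over siNEG, was -0.36 and -0.19 in EtOH at 4 and 24 h and -0.29 and -0.39 in TAM, against values between -0.04 and 0.03 over all genes. LIF (higher) and OSMR (lower) were called in all 4 comparisons. The fibroblast marker sum given above was also lower on the siSTAT3 arrays, and its part in the lower LIFR and OSMR signals was not tested. The comparisons are not independent, since the arrays of each group enter several of them.

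**Figure D1:**
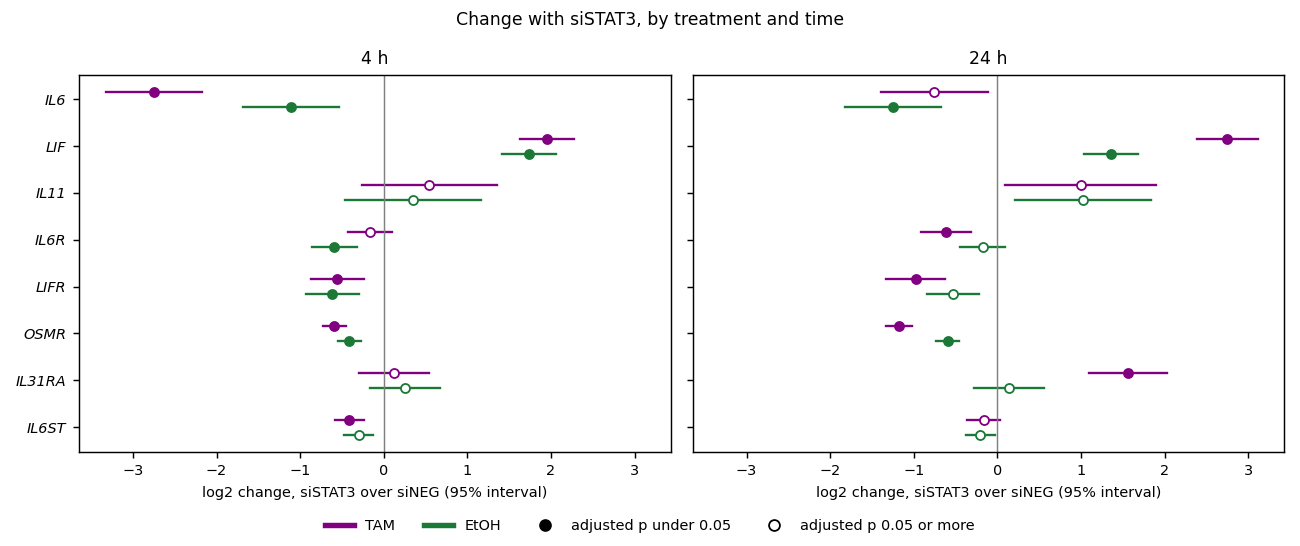
Log2 change of the main probe set, siSTAT3 over siNEG (x axis), for the 8 members at 4 h and 24 h, in TAM (purple) and EtOH (green), with 95% intervals from limma and filled points for an adjusted p below 0.05. LIF lies to the right in all 4 comparisons, at 1.36 to 2.75, and OSMR to the left, at -0.41 to -1.18.

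IL6 is an inflammatory cytokine and an activator of STAT3. At 4 h its signal was 303, 459.7 and 406 units in siSTAT3 cells with TAM and 179, 180.0 and 191 units in siSTAT3 cells with EtOH. In siNEG cells at 4 h it was 1749.8, 3197 and 3069.5 units with TAM and 328, 454 and 418 units with EtOH. The 3 siNEG TAM arrays lay above every other array of the series, replicate 1 less so than the other 2. At 24 h the signal was 99.5 and 124 units in siSTAT3 TAM, 107, 46.7 and 96.4 units in siSTAT3 EtOH, 180.3, 178 and 204 units in siNEG TAM and 194, 191 and 176 units in siNEG EtOH. By then the TAM and EtOH arrays of each siRNA overlapped, and the siSTAT3 arrays all lay below the siNEG arrays.

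TAM raised IL6 6.51-fold at 4 h in siNEG cells (log2 change 2.70, SE 0.27, adjusted p = 1.35e-05). At 24 h the log2 change in siNEG cells was 0.00 (95% interval -0.57 to 0.58). In siSTAT3 cells the change at 4 h was 1.07 (SE 0.27) with arrays that did not overlap, but it missed the threshold (adjusted p = 0.11). It passed in 2 of 14 other settings, a mean-variance trend (adjusted p = 0.0268) and a filter on low signals (0.0356). Set against siNEG cells, siSTAT3 cells had 6.72-fold less IL6 signal in TAM at 4 h (log2 change -2.75, SE 0.27, adjusted p = 3.99e-06). In EtOH the gene was also lower in siSTAT3 cells, by 1.11 on the log2 scale at 4 h (adjusted p = 0.0318) and by 1.25 at 24 h (adjusted p = 0.0214). Both calls were lost when 1 of several arrays was left out. The first was lost without siNEG EtOH 4 h replicate 2 or 3 or any 1 of the siSTAT3 EtOH 4 h replicates (log2 change -1.14 to -1.02, adjusted p = 0.0772 to 0.131), and the second without any 1 siNEG EtOH 24 h replicate or siSTAT3 EtOH 24 h replicate 2 (log2 change -1.29 to -0.88, adjusted p = 0.0595 to 0.0949). In TAM at 24 h the change was -0.75 (SE 0.30, adjusted p = 0.138).

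The region around the start of IL6 is shown because IL6 had the largest change with TAM at 4 h of the 8 members. Promoter windows of 250 bases before to 50 bases after the annotated start came from RefSeq on GRCh38.p14, where 6 of the 8 members matched and LIF and IL31RA did not. Capitals mark matches to the C/EBP motif TTGCNNAA and to the NF-κB consensus, searched on both strands together with the STAT motif TTCNNNGAA and the AP-1 motif TGANTCA. The IL6 window on chr7:22726950-22727249, plus strand, lies within the gene's upstream region and first bases:
IL6: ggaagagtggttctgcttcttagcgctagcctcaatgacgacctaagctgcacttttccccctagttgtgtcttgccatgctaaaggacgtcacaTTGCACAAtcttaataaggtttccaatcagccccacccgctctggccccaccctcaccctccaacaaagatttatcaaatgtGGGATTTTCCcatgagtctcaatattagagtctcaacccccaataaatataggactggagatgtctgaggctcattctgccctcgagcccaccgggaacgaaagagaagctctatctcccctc
It holds 1 C/EBP match, which begins 155 bases before the start, and 1 NF-κB match, which begins 73 bases before it, and no match to the STAT or AP-1 motif. These 2 matches do not overlap. Of 35116 windows of the same length, 10.5% hold the C/EBP motif, 11.3% the NF-κB consensus, 7.66% the STAT motif and 7.71% the AP-1 motif. A match is a run of letters and no evidence of binding.

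LIF, a ligand of LIFR and gp130, was higher in siSTAT3 cells under every condition. At 4 h its signal was 3462, 4157 and 4235 units in siSTAT3 TAM, 2101, 2307 and 2248 units in siSTAT3 EtOH, 791, 1169 and 1128 units in siNEG TAM and 596, 707 and 693 units in siNEG EtOH. No 2 of these 4 groups overlapped, and every siSTAT3 array lay above every siNEG array. At 24 h it was 582 and 762 units in siSTAT3 TAM, 391, 380.3 and 318 units in siSTAT3 EtOH, 106, 97.3 and 94.2 units in siNEG TAM and 148, 154 and 122 units in siNEG EtOH. The groups again did not overlap, but the order of TAM and EtOH in siNEG cells had turned.

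Set against siNEG cells, siSTAT3 cells had 3.34-fold more LIF in EtOH at 4 h (log2 change 1.74, SE 0.15, adjusted p = 4.28e-06) and 2.57-fold more at 24 h (1.36, SE 0.15, adjusted p = 7.1e-05). In TAM the difference was 3.88-fold at 4 h (1.96, SE 0.15, adjusted p = 2.79e-07) and 6.73-fold at 24 h (2.75, SE 0.17, adjusted p = 5.57e-09). The TAM effects were smaller. In siSTAT3 cells LIF was 1.78-fold higher with TAM at 4 h (0.83, SE 0.15, adjusted p = 0.0177) and 1.84-fold higher at 24 h (0.88, SE 0.17, adjusted p = 0.0104), and in siNEG cells it was 1.53-fold higher at 4 h (0.61, SE 0.15, adjusted p = 0.0424) and 1.42-fold lower at 24 h (-0.51, SE 0.15, adjusted p = 0.0376). Each of these 4 calls was lost when any 1 of several arrays was left out. In siSTAT3 cells this was so at 4 h for each EtOH replicate and TAM replicates 2 and 3 (log2 change 0.77 to 0.86, adjusted p = 0.0538 to 0.0858), and at 24 h for EtOH replicate 3 and TAM replicate 3 (0.69 to 0.79, adjusted p = 0.053 to 0.221). In siNEG cells it was so at 4 h for each EtOH replicate and TAM replicates 2 and 3 (0.51 to 0.66, adjusted p = 0.0819 to 0.196), and at 24 h for each TAM replicate and EtOH replicates 1 and 2 (-0.56 to -0.44, adjusted p = 0.0579 to 0.142). No change of direction occurred in any of them. The downward call in siNEG cells at 24 h compared signals of only 94.2 to 154 units. It was also lost with 16 units added to the signal (-0.45, adjusted p = 0.054) and with quantile normalization (-0.48, adjusted p = 0.0617).

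IL11, the third ligand, signals through its own receptor and gp130. Its group means lay between 24.5 ± 8.1 units (siNEG EtOH 24 h) and 73.5 ± 13.7 units (siSTAT3 EtOH 4 h, SD, n = 3 each). Of its 7 pairs of neighbouring groups by level, 6 overlapped. Neither TAM nor the siRNA gave a call. The changes with siSTAT3 were 1.03 (SE 0.38, adjusted p = 0.267) in EtOH and 0.99 (SE 0.43, adjusted p = 0.173) in TAM at 24 h, with siSTAT3 arrays above siNEG arrays in both.

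IL6R binds IL6 and hands it to gp130. Its signal averaged 226 ± 32.7 units in siSTAT3 TAM, 261 ± 27.8 units in siSTAT3 EtOH, 253 ± 30.7 units in siNEG TAM and 392 ± 19.3 units in siNEG EtOH at 4 h (SD, n = 3 each). At 24 h the means were 468 ± 37.9 units in siSTAT3 TAM (n = 2), 519.8 ± 52.8 units in siSTAT3 EtOH, 717 ± 40.7 units in siNEG TAM and 587 ± 55.1 units in siNEG EtOH (n = 3 each). At 4 h the siNEG EtOH arrays (402, 405 and 370.1 units) stood above all others, and the other 3 groups overlapped with their neighbours by level. TAM lowered IL6R in siNEG cells at 4 h by 0.64 on the log2 scale (SE 0.13, adjusted p = 0.00864), but with the mean of its probe sets the change was -0.48 and missed the threshold (adjusted p = 0.49). That mean takes in a dim probe set, with group means of 23.6 units or less. The further probe set above 100 units had means of 152 units with TAM and 211 units with EtOH, with arrays that overlapped. In siSTAT3 cells at 4 h the TAM change of the main probe set was -0.21 (95% interval -0.48 to 0.05, adjusted p = 0.667). At 24 h in siNEG cells the TAM arrays all lay above the EtOH arrays, but the change of 0.29 (SE 0.13) missed the threshold (adjusted p = 0.176). With siSTAT3 IL6R was lower in EtOH at 4 h (log2 change -0.59, SE 0.13, adjusted p = 0.0133) and in TAM at 24 h (-0.62, SE 0.14, adjusted p = 0.00656). The first call was lost without siNEG EtOH 4 h replicate 1 or 2 or siSTAT3 EtOH 4 h replicate 2 (-0.57 to -0.51, adjusted p = 0.0517 to 0.073) and the second without siSTAT3 TAM 24 h replicate 3 (-0.53, adjusted p = 0.0994).

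LIFR, the receptor chain for LIF, was lower with siSTAT3 by its main probe set in 3 of 4 comparisons. In TAM at 24 h its signal was 541 and 417 units in siSTAT3 cells, against 820.0, 897 and 1113 units in siNEG cells, 1.97-fold lower (log2 change -0.98, SE 0.17, adjusted p = 0.000514). No siSTAT3 array reached the lowest siNEG array there. In TAM at 4 h the signal was 502, 473 and 593 units in siSTAT3 cells, against 842, 692 and 765 units in siNEG cells (-0.55, SE 0.15, adjusted p = 0.0301). In EtOH at 4 h it was 468, 501 and 531 units in siSTAT3 cells, against 726, 818 and 752 units in siNEG cells (-0.61, SE 0.15, adjusted p = 0.0294). In each of these pairs the arrays did not overlap. In EtOH at 24 h the change of -0.53 (SE 0.15) missed the threshold (adjusted p = 0.091). It passed in 2 of 14 other settings, a mean-variance trend (0.0233) and a filter on low signals (0.0279). Both 4 h calls were lost when 1 of several arrays was left out. In TAM this was so for siNEG replicates 1 and 3 and siSTAT3 replicates 1 and 2 (-0.55 to -0.48 without each, adjusted p = 0.0783 to 0.125). In EtOH it was so for any 1 of the 6 arrays (-0.66 to -0.57, adjusted p = 0.0561 to 0.119). With the mean of its 5 probe sets none of the 3 calls passed. The log2 changes were then -0.43 in TAM at 24 h (adjusted p = 0.267), -0.05 in TAM at 4 h (0.935) and -0.21 in EtOH at 4 h (0.714). This mean takes in dim probe sets, with group means of 93.0 and 31.0 units or less. The further probe sets above 100 units also had lower means with siSTAT3 at 4 h. In TAM these were 269 against 381 units and 211 against 254 units, and in EtOH 298 against 383 units and 214 against 256 units. TAM gave no call for LIFR in either siRNA at either time, with log2 changes between -0.34 and 0.11.

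OSMR is the signalling chain that oncostatin M and IL31 share, and its differences had the smallest standard errors of the 8 members. At 4 h its signal was 5091, 4904 and 4802 units in siSTAT3 TAM, 3929, 3969 and 3950.3 units in siSTAT3 EtOH, 7637, 7379 and 7269 units in siNEG TAM and 5310.1, 5228 and 5255 units in siNEG EtOH. At 24 h it was 3475 and 3316 units in siSTAT3 TAM, 2911, 3151 and 2967 units in siSTAT3 EtOH, 7799, 8009 and 7256 units in siNEG TAM and 4728, 4315 and 4586 units in siNEG EtOH. Every TAM array lay above every EtOH array of the same siRNA and time, and every siSTAT3 array below every siNEG array of the same treatment and time. Ordered by mean, 6 of the 7 pairs of neighbouring groups did not overlap, the exception being siNEG TAM at 4 and 24 h.

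By its main probe set, TAM raised OSMR in siNEG cells 1.41-fold at 4 h (log2 change 0.50, SE 0.06, adjusted p = 0.00021) and 1.69-fold at 24 h (0.76, SE 0.06, adjusted p = 3.24e-07). In siSTAT3 cells it was 1.25-fold higher at 4 h (0.32, SE 0.06, adjusted p = 0.031), a call lost without any 1 of the 6 arrays compared (0.30 to 0.34, adjusted p = 0.0594 to 0.126) and with the mean of its probe sets (0.21, adjusted p = 0.236), and at 24 h the change was 0.17 (SE 0.07, adjusted p = 0.324). With siSTAT3 OSMR was 1.33-fold lower in EtOH at 4 h (-0.41, SE 0.06, adjusted p = 0.00121), 1.51-fold lower in EtOH at 24 h (-0.59, SE 0.06, adjusted p = 5.5e-05) and 1.51-fold lower in TAM at 4 h (-0.59, SE 0.06, adjusted p = 1.22e-05). The difference was widest in TAM at 24 h, where OSMR was 2.26-fold lower in siSTAT3 cells (-1.18, SE 0.07, adjusted p = 5.15e-09).

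The OSMR window is shown beside that of IL6 because OSMR, like IL6, was lower with siSTAT3 in EtOH at both times. It lies on chr5:38845762-38846061, plus strand, of GRCh38.p14, and the capitals mark the C/EBP and AP-1 matches:
OSMR: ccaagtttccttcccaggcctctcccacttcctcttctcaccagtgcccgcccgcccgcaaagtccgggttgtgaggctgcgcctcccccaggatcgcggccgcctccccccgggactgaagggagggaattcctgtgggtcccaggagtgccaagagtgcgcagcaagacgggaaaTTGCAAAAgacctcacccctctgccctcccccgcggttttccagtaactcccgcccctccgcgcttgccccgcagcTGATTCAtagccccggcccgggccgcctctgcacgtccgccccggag
The C/EBP match begins 73 bases before the start and the AP-1 match lies just after it. Neither the STAT motif nor the NF-κB consensus was found in this window. Among the 8 windows of the members, which include 3 of LIFR, the STAT motif occurred in 2 of the LIFR windows only.

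IL31RA pairs with OSMR in the receptor for IL31. Its signal in TAM at 24 h was 270.2 and 251 units in siSTAT3 cells and 89.4, 67.0 and 115 units in siNEG cells. In EtOH at 24 h it was 255, 313 and 228 units in siSTAT3 cells and 284, 227 and 213 units in siNEG cells. At 4 h all arrays of the 4 groups lay between 168 and 309 units. The siNEG TAM 24 h arrays were thus the only group set apart, below all other arrays of the series. TAM lowered IL31RA 2.71-fold at 24 h in siNEG cells (log2 change -1.44, SE 0.20, adjusted p = 7.48e-05), and it was 2.95-fold higher in siSTAT3 than in siNEG cells in TAM at 24 h (1.56, SE 0.22, adjusted p = 9.1e-05). In siSTAT3 cells the TAM change at 24 h was -0.02 (95% interval -0.48 to 0.45). With the mean of the 3 IL31RA probe sets the siRNA difference was 1.09 and missed the threshold (adjusted p = 0.0664). The epithelial markers CDH1, CLDN1 and DSP also stood apart in this group, with summed signals of 30835 to 35518 units in siSTAT3 TAM 24 h, against 18389 to 19359.9 units in siNEG TAM 24 h, and their part in the result was not tested.

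IL6ST encodes gp130, and by main probe set it changed least of the 8. Its group means ranged from 6582 ± 165 units (siSTAT3 EtOH 24 h) to 9073 ± 914 units (siNEG TAM 4 h, SD, n = 3 each), a span of 1.37-fold, and all 7 pairs of neighbouring groups overlapped. For this main probe set the siSTAT3 arrays lay below the siNEG arrays in each pairing of siSTAT3 with siNEG. The difference passed the test in TAM at 4 h, with 6763, 6269 and 7398 units in siSTAT3 cells and 9750.0, 8033 and 9436 units in siNEG cells (log2 change -0.41, SE 0.08, adjusted p = 0.00426). In EtOH at 4 h it was -0.30 (SE 0.08, adjusted p = 0.0601). This passed in 3 of 14 other settings, a mean-variance trend (0.0102), a filter on low signals (0.014) and quantile normalization (0.0475). The further IL6ST probe sets above 100 units parted there. Their means were 792 units in siSTAT3 cells against 793 units in siNEG cells, 775 against 698 units and 764 against 843 units. TAM gave no call for the main IL6ST probe set, and the 4 intervals together spanned -0.17 to 0.33. The further IL6ST probe sets above 100 units had higher means with TAM in siNEG cells at 4 h. These were 1289 units against 793 units in EtOH, 1117 against 698 units and 1061 against 843 units. In each of them the TAM arrays lay above the EtOH arrays.

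**Figure D2:**
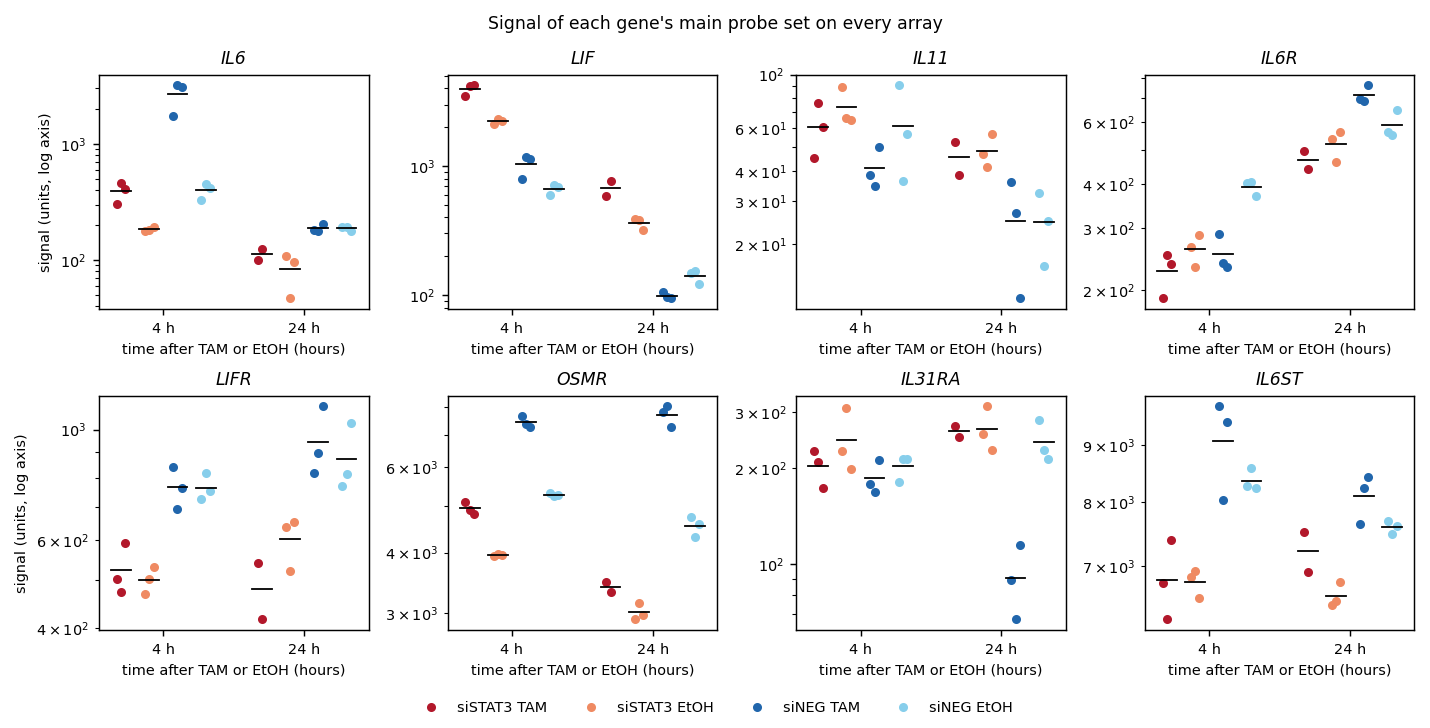
Signal on every array (points, log axis, units) with group means (bars) for the main probe set of each member, at 4 h and 24 h after TAM or EtOH, in siSTAT3 cells (red, orange) and siNEG cells (dark and light blue). The siNEG TAM arrays of IL6 stand apart at 4 h, between 1749.8 and 3197 units, and those of IL31RA at 24 h, between 67.0 and 115 units.

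Whether the TAM effect itself differed between siRNAs was tested as an interaction, with the log2 effect in siNEG cells taken away from that in siSTAT3 cells. At 24 h it passed for 3 of 8 members, against 5.91% of genes. LIF had an interaction of 1.39 (SE 0.23, adjusted p = 0.0012), the TAM effect being 0.88 in siSTAT3 cells and -0.51 in siNEG cells. IL31RA had 1.42 (SE 0.30, adjusted p = 0.0088), from -0.02 in siSTAT3 cells and -1.44 in siNEG cells. OSMR had -0.58 (SE 0.10, adjusted p = 0.00135), from 0.17 in siSTAT3 cells and 0.76 in siNEG cells. These 3 calls remained with any 1 of the 11 arrays left out, but IL31RA missed the threshold with the mean of its probe sets (1.04, adjusted p = 0.332).

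At 4 h limma called 0 of 8 members for the interaction, against 0.521% of genes, and 2 had an unadjusted p below 0.05. IL6 was the nearer of these, with an interaction of -1.64 (SE 0.38, adjusted p = 0.097) from TAM effects of 1.07 in siSTAT3 cells and 2.70 in siNEG cells. It passed in 4 of 20 other settings, the fits without 1 array included, and the highest adjusted p among them was 0.232. These 4 were 16 units added to the signal (adjusted p = 0.0359), a mean-variance trend (0.0188) and a filter on low signals (0.0296). The last was the fit without siNEG TAM 4 h replicate 1, where the interaction was -1.92 (0.0366). The other was IL6R, at 0.42 (SE 0.18, adjusted p = 0.567).

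**Figure D3:**
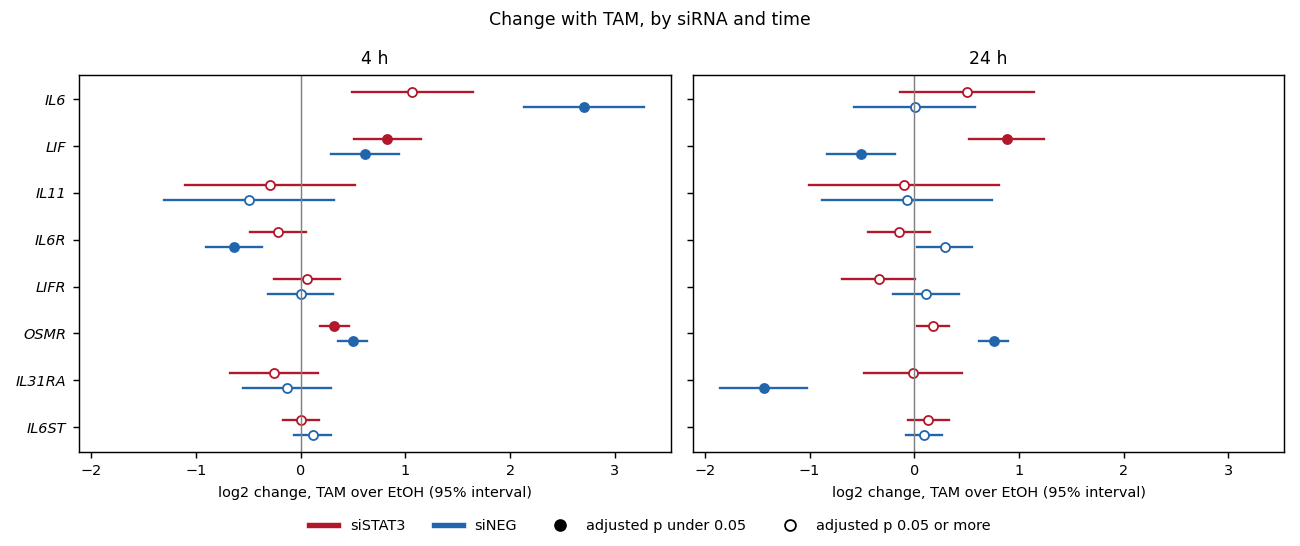
Log2 change of the main probe set with TAM over EtOH (x axis) for the 8 members at 4 h and 24 h, in siSTAT3 cells (red) and siNEG cells (blue), with 95% intervals from limma and filled points for an adjusted p below 0.05. The 2 siRNAs part for LIF, OSMR and IL31RA at 24 h, the 3 members with a called interaction.

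Between 4 and 24 h IL6 and LIF fell and IL6R rose in all 4 combinations of siRNA and treatment, in which times since transfection and since treatment cannot be told apart. In siSTAT3 TAM cells 4 of 8 members were called (14.2% of genes), in siSTAT3 EtOH cells 4 of 8 (13.4%), in siNEG TAM cells 4 of 8 (21.1%) and in siNEG EtOH cells 5 of 8 (12.3%). The log2 change of LIF was -2.56 in siSTAT3 TAM (SE 0.17, adjusted p = 8.77e-08), -2.62 in siSTAT3 EtOH, -3.36 in siNEG TAM and -2.23 in siNEG EtOH. That of IL6 was -1.79 in siSTAT3 TAM (SE 0.30, adjusted p = 0.000839), -1.22 in siSTAT3 EtOH, -3.78 in siNEG TAM (adjusted p = 3.6e-08) and -1.09 in siNEG EtOH (adjusted p = 0.0171). The last of these was lost without siNEG EtOH 24 h replicate 3 or siNEG EtOH 4 h replicate 2 or 3 (-1.05 to -0.99, adjusted p = 0.0565 to 0.075).

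IL6R was 2.08-fold higher at 24 h in siSTAT3 TAM (log2 change 1.06, SE 0.14, adjusted p = 9.26e-05), 1.99-fold higher in siSTAT3 EtOH, 2.84-fold higher in siNEG TAM (1.51, SE 0.13, adjusted p = 2.1e-07) and 1.49-fold higher in siNEG EtOH, where the mean of its probe sets missed the threshold (0.68, adjusted p = 0.129). OSMR fell in siSTAT3 cells, with log2 changes of -0.54 with TAM (adjusted p = 0.000106) and -0.39 with EtOH (adjusted p = 0.000632), and in siNEG EtOH cells (-0.21, adjusted p = 0.0491). In siNEG TAM cells its change was 0.05 (SE 0.06), or 0.26 with the mean of its probe sets, which passed (adjusted p = 0.009). IL31RA fell by 1.07 in siNEG TAM cells (SE 0.20, adjusted p = 0.000925), a change that was -0.65 and missed the threshold with the mean of its probe sets (adjusted p = 0.222). IL11 fell by 1.28 in siNEG EtOH cells (SE 0.38, adjusted p = 0.0471). The OSMR call in siNEG EtOH was lost without any 1 of its 6 arrays (-0.24 to -0.18, adjusted p = 0.0609 to 0.183), and the IL11 call without siNEG EtOH 24 h replicate 2 or 3 or siNEG EtOH 4 h replicate 1 or 3 (-1.32 to -0.95, adjusted p = 0.0952 to 0.199).

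Comparing the TAM effect at 24 h with that at 4 h, a test chosen after the values were seen, called 4 of 8 members in siNEG cells, against 5.59% of genes. The difference in effect was -2.70 on the log2 scale for IL6 (SE 0.38, adjusted p = 0.000381), -1.12 for LIF (SE 0.22, adjusted p = 0.00516), -1.31 for IL31RA (SE 0.28, adjusted p = 0.0117) and 0.93 for IL6R (SE 0.18, adjusted p = 0.0051). For OSMR it was 0.26 (SE 0.09, adjusted p = 0.153). That passed in 3 of 20 other settings, the mean of its probe sets (0.46, adjusted p = 0.00578), a mean-variance trend (0.0433) and a filter on low signals (0.0385). The IL31RA and IL6R differences missed the threshold with the mean of probe sets (adjusted p = 0.463 and 0.215). In siSTAT3 cells limma called 0 of 8, against 0.536% of genes, and 0 had an unadjusted p below 0.05.

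The other probe sets of the same genes bear on 6 members, since IL6 and LIF have 1 probe set each. In TAM at 24 h both further OSMR probe sets were lower with siSTAT3, with log2 changes of -1.43 (adjusted p = 6.31e-07) and -1.07 (adjusted p = 0.000163). At 4 h they parted. The first had means of 829 units in siSTAT3 and 1093 units in siNEG cells with EtOH, and 975 and 1717 units with TAM. The second had 236 and 224 units with EtOH and 250 and 222 units with TAM, so it was not lower with siSTAT3. It also did not rise with TAM in siNEG cells at 4 h. In TAM at 24 h 1 of the 4 further LIFR probe sets was lower (-0.83, adjusted p = 0.0334), while a second one above 100 units changed by -0.16 (SE 0.17). The further IL6R probe set above 100 units changed by -0.65 (adjusted p = 0.077), and rose from 4 to 24 h in all 4 combinations of siRNA and treatment. None of the 6 further IL6ST probe sets passed in this comparison, and the 2 further IL31RA probe sets stayed at group means of 48.5 and 28.2 units or less. With the mean of all probe sets of each gene, the called differences of IL31RA, IL6R, LIFR and IL6ST between siSTAT3 and siNEG cells no longer passed. For each of these genes that mean takes in dim probe sets, which stayed below 100 units in every group.

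**Figure D4:**
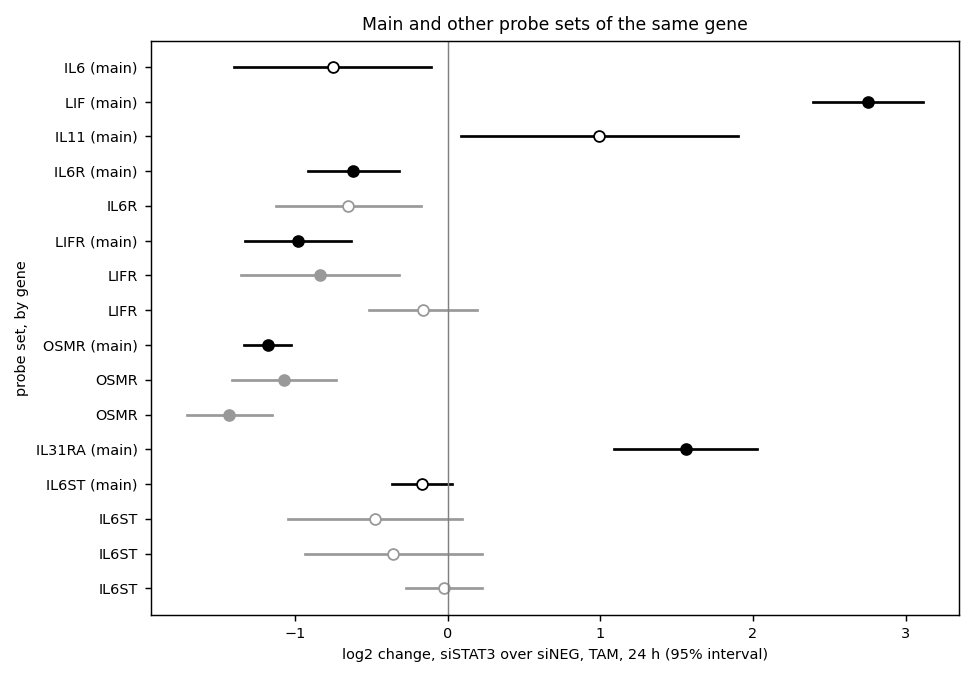
Log2 change in TAM at 24 h, siSTAT3 over siNEG (x axis), with 95% intervals, for the main probe set of each member (black) and its other probe sets with a group mean of at least 100 units (grey), filled where the adjusted p is below 0.05. All 3 OSMR probe sets lie to the left, and the LIFR probe sets differ, between -0.98 and -0.16.

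The rest of the pathway was read through lists written with earlier results of these data known. Of 9 other ligands and partners, 7 were measured, and only IL12A, a subunit of IL12 and IL35, reached 100 units. With siSTAT3 IL12A was higher in TAM at 4 h (log2 change 0.50, SE 0.14, adjusted p = 0.041), 1 of the 7 against 9.29% of all genes. Its signal there was 160, 176 and 175 units in siSTAT3 cells, against 126, 125 and 110 units in siNEG cells. OSM, the ligand of OSMR, had group means of 51.0 units or less. Its only call was a lower signal at 24 h than at 4 h in siSTAT3 TAM (adjusted p = 0.0494), between signals too dim for a fold. Of 6 other receptor chains, IL27RA, which pairs with gp130 for IL27, was the only 1 called, lower with siSTAT3 in all 4 comparisons. Its log2 changes were -0.39 (adjusted p = 0.0125) and -0.54 (0.00136) in EtOH and -0.52 (0.000501) and -0.33 (0.0232) in TAM at 4 and 24 h. That makes 1 of 6 in each, against 4.28% and 2.86% of all genes in EtOH and 9.29% and 16.5% in TAM. In the 4 siRNA comparisons the medians of the ligand list, dim except for IL12A, lay between -0.79 and 0.68. Those of the receptor list lay between -0.29 and 0.02, and those of all genes between -0.04 and 0.03. ADAM10 and ADAM17 are proteases that shed IL6R and other receptors. With siSTAT3 ADAM17 was lower in EtOH at 24 h (-0.34, adjusted p = 0.0482, 2.86% of all genes called). ADAM10 was higher in TAM at 24 h (0.32, adjusted p = 0.012, 16.5%).

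Of 20 signal carriers and inhibitors below gp130, 19 were measured. In siNEG cells TAM raised 3 and lowered 0 at 4 h (3.26% of all genes called) and raised 9 and lowered 2 at 24 h (15.4%, medians 0.03 and 0.15, against -0.06 and -0.04 over all genes). SOCS3 had the largest rise, by 3.34 at 4 h (SE 0.34, adjusted p = 1.75e-05) and by 4.28 at 24 h (adjusted p = 1.55e-07). JAK2, a kinase bound to these receptors, rose by 0.99 at 4 h (adjusted p = 0.0355) and by 0.91 at 24 h (adjusted p = 0.0193). SOCS1, another inhibitor of Janus kinases, rose by 1.90 at 24 h (adjusted p = 2.84e-06), from a dim start. Its signal there was 63.5, 41.6 and 71.8 units with EtOH, against 236, 178 and 236 units with TAM. PTPN2, a phosphatase that acts on Janus kinases, rose by 0.60 at 4 h and 0.79 at 24 h. In siSTAT3 cells TAM raised 1 of the 19 at 4 h (0.819% of genes), SOCS3 by 1.62 (adjusted p = 0.0414), and 3 at 24 h (2.75%), JAK1, SOCS2 and CISH. Set against siNEG cells, siSTAT3 cells with TAM had 1 higher and 5 lower at 4 h (9.29% of genes) and 1 higher and 6 lower at 24 h (16.5%), and with EtOH 1 higher and 2 lower at 4 h (4.28%) and 0 higher and 2 lower at 24 h (2.86%). STAT3 itself was among the lower ones in all 4. At 24 h with TAM, SOCS3 had 242 and 112 units in siSTAT3 cells and 8070.0, 8494 and 7602 units in siNEG cells, a 48.8-fold difference (-5.61, SE 0.38, adjusted p = 1.81e-08), and JAK2 was 2.93-fold lower.

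Of 25 STAT3 and gp130 target genes, 24 were measured. TAM raised 10 of them in siNEG cells at 4 h (3.26% of all genes called) and 15 at 24 h (15.4%), with 0 and 1 lower. In siSTAT3 cells it raised 4 at 4 h (0.819%) and 4 at 24 h (2.75%), with 0 and 1 lower. The median log2 change with TAM was 0.39 and 0.61 in siNEG cells and 0.12 and 0.30 in siSTAT3 cells, against values between -0.06 and -0.01 over all genes. Beside SOCS3, large rises in siNEG cells were those of SERPINA1, an acute-phase protease inhibitor, by 2.07 at 4 h and 3.20 at 24 h, and at 24 h that of FOS, by 2.04. HP, haptoglobin, had 720.3, 568 and 522 units with TAM at 24 h in siNEG cells, against 48.4, 48.4 and 78.7 units with EtOH (adjusted p = 0.000453), the EtOH arrays lying too low for a fold. With siSTAT3 in TAM, 11 were lower and 1 higher at 4 h (9.29% of genes) and 14 lower and 3 higher at 24 h (16.5%), and in EtOH 8 were lower and 0 higher at 4 h (4.28%) and 7 lower and 2 higher at 24 h (2.86%). The interaction passed for 5 lower and 0 higher at 4 h (0.521% of genes) and for 9 lower and 2 higher at 24 h (5.91%). Among the 3 higher with siSTAT3 in TAM at 24 h was LCN2, lipocalin, with 166 and 203 units in siSTAT3 cells, against at most 15.1 units in the 3 arrays of siNEG cells (adjusted p = 0.000784), where the siNEG arrays again lay too low for a fold.

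For the 5 members that reached 100 units in some group and whose group means spanned at least 1 on the log2 scale, which leaves out the dim IL11, the genes with the most similar signal over the 23 arrays were listed as a description, with no test, among 11655 genes. The arrays share the 8 groups, so a high correlation reflects the same group pattern. Nearest to IL6 were SLC39A14, GRK3 and PLAGL2 (Pearson r = 0.926 to 0.921). LIF was nearest to SDC4, TUFT1 and PALLD (0.985 to 0.977), and IL6R to ZHX3, PRIMPOL and MEIS2 (0.967 to 0.96). OSMR came closest to SOCS3 (0.955), SIPA1L2 and HIPK3, and IL31RA to COL4A6, MAL2 and ATP6V0E2 (0.91 to 0.898). Among the members themselves the correlation over arrays was lowest for LIF with IL6R (-0.936) and highest for IL6ST with OSMR (0.748).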

How the data were processed

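RNA from 23 samples was labelled with an in vitro transcription kit that reads the end of transcripts and hybridized to Affymetrix U133 Plus 2.0 arrays, 1 array per sample. The authors made the deposited intensity values with MAS5, which corrects background, scales arrays and gives 1 linear signal per probe set. The scaling target is not given in the sources used here, and no detection calls were used. The members and all gene lists were chosen with earlier results of these data known. Named were the 8 members, list genes that passed a test (of the STAT3 targets at most the 4 with the largest change per comparison) and the 3 genes most similar to a member.

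Probe sets were assigned through the platform annotation: 41097 carry 1 gene, 1801 several and 11777 none, and only the first were used for genes. Signals were log2 transformed with nothing added, and limma 3.58.1 (R 4.3.3) fitted 1 mean per group to all 23 arrays (15 residual and 1.27 prior degrees of freedom). There were 14 comparisons, and 2 more were chosen after the values were seen. Replicate arrays of a group lay 0.184 to 0.262 apart on the log2 scale. This is the mean absolute difference over the 27612 probe sets with a mean of at least 100 units in some group. For such probe sets it sets, together with the number of arrays, how precise a value is. In simulated data with these groups the fit was tested on known changes. As alternatives, 9 settings were tried, which include the limits of the methods, p below 1e-04 with a log2 change over 0.5.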

Additional observations from a re-analysis of the deposited data

Results flagged for a closer look

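In these results the effect of a treatment differed between 2 conditions by a test of the difference itself. The TAM effect at 24 h differed between siSTAT3 and siNEG cells for LIF (interaction 1.39), for IL31RA (1.42) and for OSMR (-0.58). In siNEG cells the TAM effect at 24 h differed from that at 4 h for IL6 (-2.70), LIF (-1.12), IL31RA (-1.31) and IL6R (0.93). Adjusted p of these 7 results ranged from 0.000381 to 0.0117. The last 4 come from the comparison chosen after the values were seen. No explanation was tested.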

How the results depend on the processing

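No called difference of a member reversed under any alternative. Of 128 values, 125 stayed on their side of the threshold with 16 units added to the signal, 110 with the mean of a gene's probe sets, 122 with a mean-variance trend, 93 with a fit to only the arrays compared, 107 under the limits of the methods (p below 1e-04 and a log2 change over 0.5) and 125 with quantile normalization, and 107 of 112 with a filter at 100 units. Fitting only the arrays compared leaves few degrees of freedom, and IL6 with TAM in siNEG cells at 4 h then had an adjusted p of 0.0644.

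The number of members called fell with that fit to 0 of 4 (TAM in siNEG, 4 h), 0 of 2 and 0 of 1 (TAM in siSTAT3, 4 and 24 h), 1 of 5 and 0 of 3 (siSTAT3 against siNEG in EtOH, 4 and 24 h), 2 of 5 and 2 of 5 (in TAM), 1 of 3 (interaction, 24 h), and between 4 and 24 h to 0 of 4 (siSTAT3 TAM), 2 of 4 (siSTAT3 EtOH) and 1 of 5 (siNEG EtOH). With the mean of probe sets it was 1 of 2 (TAM in siSTAT3, 4 h), 3 of 5 (EtOH, 4 h), 3 of 5 and 2 of 5 (TAM, 4 and 24 h) and 2 of 5 (time, siNEG EtOH). Under the limits of the methods it was 1 of 4 (TAM in siNEG, 4 h), 1 of 2 (TAM in siSTAT3, 4 h), 1 of 5 (EtOH, 4 h), 3 of 5 (TAM, 4 h), 2 of 4 (time, siSTAT3 EtOH) and 1 of 5 (time, siNEG EtOH). The 4 h interaction, with 0 calls, had 1 with 16 units added, with the trend and with the filter.

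Leaving out 1 array at a time gave 2 to 4 calls in place of 5 (time, siNEG EtOH), 2 to 3 in place of 5 (EtOH, 4 h), 0 to 1 in place of 2 (TAM in siSTAT3, 4 h), 0 to 1 in place of 1 (TAM in siSTAT3, 24 h) and 0 to 1 in place of 0 (interaction, 4 h). Of 52 calls, 38 held without any 1 array. The arrays of equal number deviated together only weakly. Their median correlation was 0.0276 over 77 pairs, 11 of them above 0.1, against -0.0172 over 154 pairs of unlike number. The numbers were therefore not taken to pair them. A replicate block changed 2 calls, LIF with TAM in siNEG cells at 4 h (adjusted p = 0.0547) and OSMR over time in siNEG EtOH (0.0586). Why calls changed was not tested. Dim probe sets, such as that of IL11, limit what could be seen.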
